A study of Mus musculus with 12 samples.

Results

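Lymph nodes of T NDE mice, which had B16F10 melanoma cells placed in the tongue and the nociceptive nerves of the tumour-draining node inhibited, were compared with nodes of NT NC mice, which had neither. Each group had 3 libraries, so that 6 of the 12 libraries of the series enter the comparison, and the question it addresses is how near denervated tumour-draining nodes are to baseline. The other groups were T NC (tumour, nerves not inhibited) and NT NDE (no tumour, nerves inhibited), with 3 libraries each. They helped to estimate the spread. The replicates are described as biologically independent. The labels give no strain, age, day of sampling, method of nerve inhibition or number of mice per library, so p-values measure the spread between these libraries. T NDE differs from NT NC in both tumour and nerve state, and the part of each cannot be told apart in this comparison alone.

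Lymph nodes filter tissue fluid and bring antigen to B and T cells. Type I interferons, made after nucleic acid sensing, act through the receptor Ifnar1/Ifnar2 and transcription factors that include Stat2 and Irf9 and bind the interferon-stimulated response element (ISRE) of antiviral genes. Interferon gamma, made by T and NK cells, induces guanylate-binding proteins, immunity-related GTPases and chemokines. Nociceptive fibres release peptides such as CGRP and substance P, whose receptors are encoded by Calcrl with Ramp1 and by Tacr1.

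The libraries held 18087371, 19598496 and 21424983 counts in T NDE and 17590510, 24029956 and 20264355 counts in NT NC. CPM are read counts scaled to library size with TMM factors, except where they are given as CPM of the library total, without these factors. The markers of the labelled tissue were present. The summed level of 14 pan B cell genes ran from 4519 to 6451 CPM of the library total in T NDE and from 4705 to 5904 in NT NC. That of 19 pan T cell genes ran from 2569.5 to 2879 CPM of the library total in T NDE and from 2824 to 3417 in NT NC. Of 11 melanocyte genes, the lineage of B16F10 cells, 4 had enough counts to be tested. The summed level of all 11 was 13.4 to 15.7 CPM of the library total in T NDE and 12.3 to 17.5 in NT NC. Salivary transcripts set 3 libraries apart. Bpifa2, a secreted salivary protein gene, stood at 15.9, 26.1 and 25420 CPM of the library total in T NDE and at 10.5, 997 and 19567 CPM in NT NC. The salivary gland list took 0.00874%, 0.00917% and 4.28% of counts in T NDE and 0.00680%, 0.166% and 3.08% in NT NC. Results below are therefore given from a fit without a covariate, with a second fit that has the log2 CPM of Bpifa2 as covariate and, for the named genes and 18 of the gene lists, with values without T NDE 3, NT NC 2 and NT NC 3 where these move a result. The pan T, naive T and plasmacytoid dendritic cell, oxidative phosphorylation, nerve, reticular and endothelial lists were fitted with all libraries only.

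Gene by gene, few differences from baseline passed a test. In the fit without covariate 0 of 17301 genes passed (0% called, smallest edgeR adjusted p = 0.0808), and 1474 genes (8.52%) had an unadjusted p under 0.05, 747 higher (4.32%) and 727 lower (4.2%) in T NDE. With the Bpifa2 covariate 1 gene passed (0.00578%) and 1540 (8.9%) had an unadjusted p under 0.05, 4.53% of all genes higher and 4.37% lower. Limma-voom called 1 gene, with 8.65% of genes at an unadjusted p under 0.05. DESeq2 called 82 of 15586 genes (0.526%), 16 higher (0.103%) and 66 lower (0.423%), of which 13 belong to the type I interferon list, 3 to the interferon gamma list and 0 to the salivary gland list. Absence of a call is not equality, so the intervals were counted as well. For 13915 genes (80.4%) the 95% interval of the fold change lay inside 2-fold, and the median width of the interval was 0.56 on the log2 scale. With the covariate the share was 80.5%. The same count was 13946 (80.6%) for T NC and 13858 (80.1%) for NT NDE against the same NT NC libraries, which the 3 comparisons share, and an unadjusted p under 0.05 was found for 7.8% of genes in T NC and 10.4% in NT NDE, with 0 genes called by edgeR in each. The interval lay wholly beyond 1.5-fold for 25 genes (0.145%).

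As whole profiles, the distance between T NDE and NT NC libraries lay between the mean distances within the groups. The root mean square difference in log2 CPM over all tested genes averaged 0.536 over the 9 pairs of a T NDE and an NT NC library, with a range of 0.441 to 0.668. Pairs within T NDE averaged 0.595 and pairs within NT NC 0.510, with ranges of 0.436 to 0.700 and 0.456 to 0.583, and pairs within T NC and within NT NDE averaged 0.445 and 0.437. The mean within T NDE came from T NDE 3, which was 0.700 and 0.649 from T NDE 1 and T NDE 2. T NC and NT NDE libraries averaged 0.511 and 0.519 from the NT NC libraries they share with this comparison. Among libraries with few salivary transcripts, T NDE 1 and T NDE 2 were 0.436 apart and averaged 0.469 from NT NC 1.

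**Figure D1:**
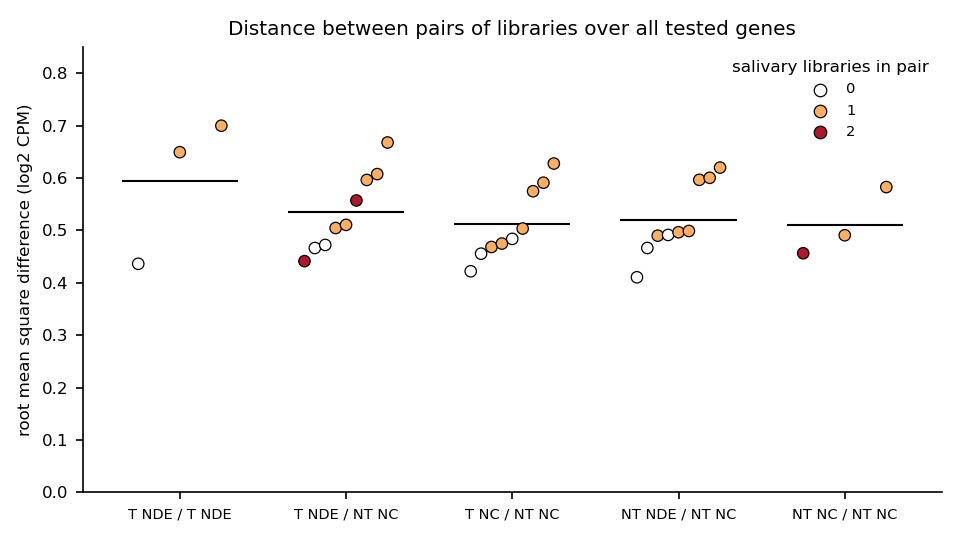
Each point is the root mean square difference in log2 CPM over 17301 genes between a pair of libraries (vertical axis), grouped by the groups of the pair, with the mean as a line and the number of salivary libraries (T NDE 3, NT NC 2 and NT NC 3) as colour. The T NDE and NT NC pairs, averaging 0.536, lie within the range of the pairs inside T NDE, 0.436 to 0.700.

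The gene that passed with the covariate was Gm30948, a long intergenic non-coding RNA gene on the plus strand at chr12:115262684-115287908 (mm10, GENCODE M21), inside the cluster of immunoglobulin heavy chain variable segments. Predicted genes were outside the naming rule, and it is named because it alone passed. It had 10.1, 5.43 and 5.42 CPM in T NDE and 20.5, 21.4 and 16.97 CPM in NT NC. All T NDE libraries were below all NT NC libraries, and it fell by 1.56 on the log2 scale with the covariate (edgeR adjusted p = 0.0205). Without the covariate the fall was -1.49 (SE 0.210, edgeR adjusted p = 0.0808). It was also the 1 gene that limma-voom called without the covariate (limma-voom adjusted p = 0.0163). DESeq2 without the covariate called it as well (DESeq2 adjusted p = 3.45e-08). The edgeR call was lost, with 0 genes called, in the covariate fit with the replicate block and in those without T NDE 2, NT NC 2 or NT NC 3. The heavy chain pseudogene Ighv1-57 lies within its interval on the other strand and was not tested. Whether counting used strand is not stated by the labels, and reads of the RNA and of antisense heavy chain transcripts cannot be told apart. The neighbouring segment Ighv8-8, chosen after its values were seen, had 11.3, 10.04 and 8.75 CPM in T NDE and 15.2, 17.7 and 13.1 CPM in NT NC (log2 fold change -0.61, edgeR adjusted p = 0.324, DESeq2 adjusted p = 0.0447). Other tested genes nearby had log2 fold changes of -0.21 (Ighv1-55), -0.54 (Ighv1-58) and 0.31 (Gm7019). Ighv1-56, at a mean of 0.12 CPM in T NDE and 0.45 CPM in NT NC, had -1.94. Their edgeR adjusted p ran from 0.629 to 0.911. In the other groups Gm30948 stood between these levels, at a mean of 11.4 CPM for T NC and 8.48 CPM for NT NDE.

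Type I interferon response genes had the lowest median of the 42 lists with at least 6 tested genes outside the salivary gland list. All 28 genes of the list were lower in T NDE than in NT NC, against 47.9% of all tested genes, and the list median was -1.06 on the log2 scale, against 0.01 over all genes. Here and below, the median of a list is that of the log2 fold changes of its tested genes, T NDE over NT NC, and intervals are 95% intervals of these fold changes. Counts of list genes are to be read beside the shares over all tested genes. These were 52.1% higher and 47.9% lower, with 4.32% higher and 4.2% lower at an unadjusted p under 0.05. Of the 28, 0 passed over all genes, 24 had an unadjusted p under 0.05 (background 4.2% for lower genes), and 25 had no overlap between the groups (6.68% of all genes were lower without overlap). With the covariate the median was -1.04 and 25 genes had an unadjusted p under 0.05. DESeq2 called 13 of them. The list had been described in earlier results of these data for comparisons that share these libraries, so its direction here is no independent evidence.

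The promoters of Ifit1, Ifit3, Rsad2 and Ifih1 are shown to let the response element be seen, and were picked among genes of the list whose window holds it. That of Slfn1 is shown as one without it. The windows of Il9r and Ms4a4b, which also have no match, and of the other interferon genes with values below are not shown. They are RefSeq windows on GRCm38.p6 from 250 bases before to 50 after the gene start, 5′ to 3′ on the gene's strand, with every match to the ISRE core, which is GAAA, any 2 bases and GAAA, in capitals. A match on the other strand reads TTTC, 2 bases and TTTC, and both strands were searched. The windows lie at chr19:34640639-34640938 (plus strand), chr19:34583279-34583578 (plus), chr12:26456403-26456702 (minus), chr2:62646206-62646505 (minus) and chr11:83116570-83116869 (plus).
Ifit1: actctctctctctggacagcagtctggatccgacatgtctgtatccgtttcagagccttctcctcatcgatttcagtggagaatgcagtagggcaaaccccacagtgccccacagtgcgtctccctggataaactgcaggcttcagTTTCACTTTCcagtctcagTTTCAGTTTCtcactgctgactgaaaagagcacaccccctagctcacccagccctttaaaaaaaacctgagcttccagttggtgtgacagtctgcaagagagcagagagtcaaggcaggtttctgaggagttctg
Ifit3: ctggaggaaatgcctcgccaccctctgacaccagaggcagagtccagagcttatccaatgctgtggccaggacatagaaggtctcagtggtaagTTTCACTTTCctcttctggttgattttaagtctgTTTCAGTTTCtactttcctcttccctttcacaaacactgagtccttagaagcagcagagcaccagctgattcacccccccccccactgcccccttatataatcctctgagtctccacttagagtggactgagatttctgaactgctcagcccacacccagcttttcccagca
Rsad2: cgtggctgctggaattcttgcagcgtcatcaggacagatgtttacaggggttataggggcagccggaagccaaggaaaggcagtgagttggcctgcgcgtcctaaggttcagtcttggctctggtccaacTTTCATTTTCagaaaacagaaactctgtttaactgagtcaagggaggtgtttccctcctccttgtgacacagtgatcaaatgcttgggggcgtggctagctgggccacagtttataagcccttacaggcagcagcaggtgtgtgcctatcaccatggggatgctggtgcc
Ifih1: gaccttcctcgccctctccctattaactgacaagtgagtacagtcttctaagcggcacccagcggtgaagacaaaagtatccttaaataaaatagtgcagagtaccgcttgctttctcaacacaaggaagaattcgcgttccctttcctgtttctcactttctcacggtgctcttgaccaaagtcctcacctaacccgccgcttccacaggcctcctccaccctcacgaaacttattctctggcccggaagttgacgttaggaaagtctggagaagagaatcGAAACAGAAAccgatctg
Slfn1: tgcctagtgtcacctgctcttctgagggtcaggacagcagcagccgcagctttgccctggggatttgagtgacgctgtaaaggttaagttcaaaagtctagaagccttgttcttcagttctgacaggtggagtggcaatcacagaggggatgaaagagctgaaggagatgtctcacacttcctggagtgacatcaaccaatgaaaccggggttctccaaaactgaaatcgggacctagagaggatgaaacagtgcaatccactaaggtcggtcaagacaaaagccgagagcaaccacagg
Ifit1 and Ifit3 held 2 matches each, Rsad2 and Ifih1 1 each and Slfn1 0. Of the 20 type I interferon list genes with a window, 13 (65%) held the core, against 465 of 11733 tested genes (3.96%). It was found in 68 of 484 genes (14%) that were lower in T NDE at an unadjusted p under 0.05, and in 12 of 530 genes (2.26%) that were higher. In the interferon gamma list, 11 of 16 windows (68.8%) held it. The gamma-activated site TTCNNNGAA, searched in the same way, was in 8 of these 16 (50%) and in 981 of the 11733 (8.36%). A match describes letters in a window and does not show binding.

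Beside Ifih1, Mx1 and Ifit1, the members named here were chosen after their values were seen. Among the sensors that detect viral RNA, Ifih1 (MDA5) had 29.95, 28.9 and 29.1 CPM in T NDE and 49.1, 61.4 and 47.9 CPM in NT NC. Its T NDE libraries were nearly equal and all below NT NC. The log2 fold change was -0.85 (SE 0.138, edgeR adjusted p = 0.115, DESeq2 adjusted p = 1.89e-05). Ddx58 (RIG-I) had a log2 fold change of -0.45, with 136, 138 and 124 CPM in T NDE and 165, 209 and 171 CPM in NT NC. Stat2 and Irf7, transcription factors of the response, had log2 fold changes of -0.28 and -1.07, with overlap for Stat2 and none for Irf7. The receptor subunit genes, which are outside the list, had log2 fold changes of -0.13 for Ifnar1 and -0.04 for Ifnar2.

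Antiviral effectors ranged widely. Ifit1, which binds RNA lacking cap methylation, had 8.50, 13.1 and 9.57 CPM in T NDE, against 33.1, 53.3 and 47.5 CPM in NT NC. The groups did not overlap, and the log2 fold change was -2.10 (95% interval -3.04 to -1.16, edgeR adjusted p = 0.282, DESeq2 adjusted p = 3.87e-04). Mx1, a GTPase that blocks influenza virus replication, had 36.9, 34.1 and 33.9 CPM in T NDE and 74.6, 106 and 88.2 CPM in NT NC, again without overlap (log2 fold change -1.36, SE 0.257, edgeR adjusted p = 0.282). Ifit3, a partner of Ifit1, had 15.5, 16.9 and 11.7 CPM in T NDE and 46.4, 92.03 and 68.4 CPM in NT NC (log2 fold change -2.24). Rsad2, which encodes viperin, an enzyme that makes a chain-terminating nucleotide, had 6.97, 11.01 and 7.06 CPM in T NDE and 26.6, 42.1 and 32.8 CPM in NT NC (log2 fold change -2.02). In each of these genes the lowest NT NC library was replicate 1. The smallest difference in the list was that of Bst2, tetherin, with a log2 fold change of -0.20, with overlapping groups.

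**Figure D2:**
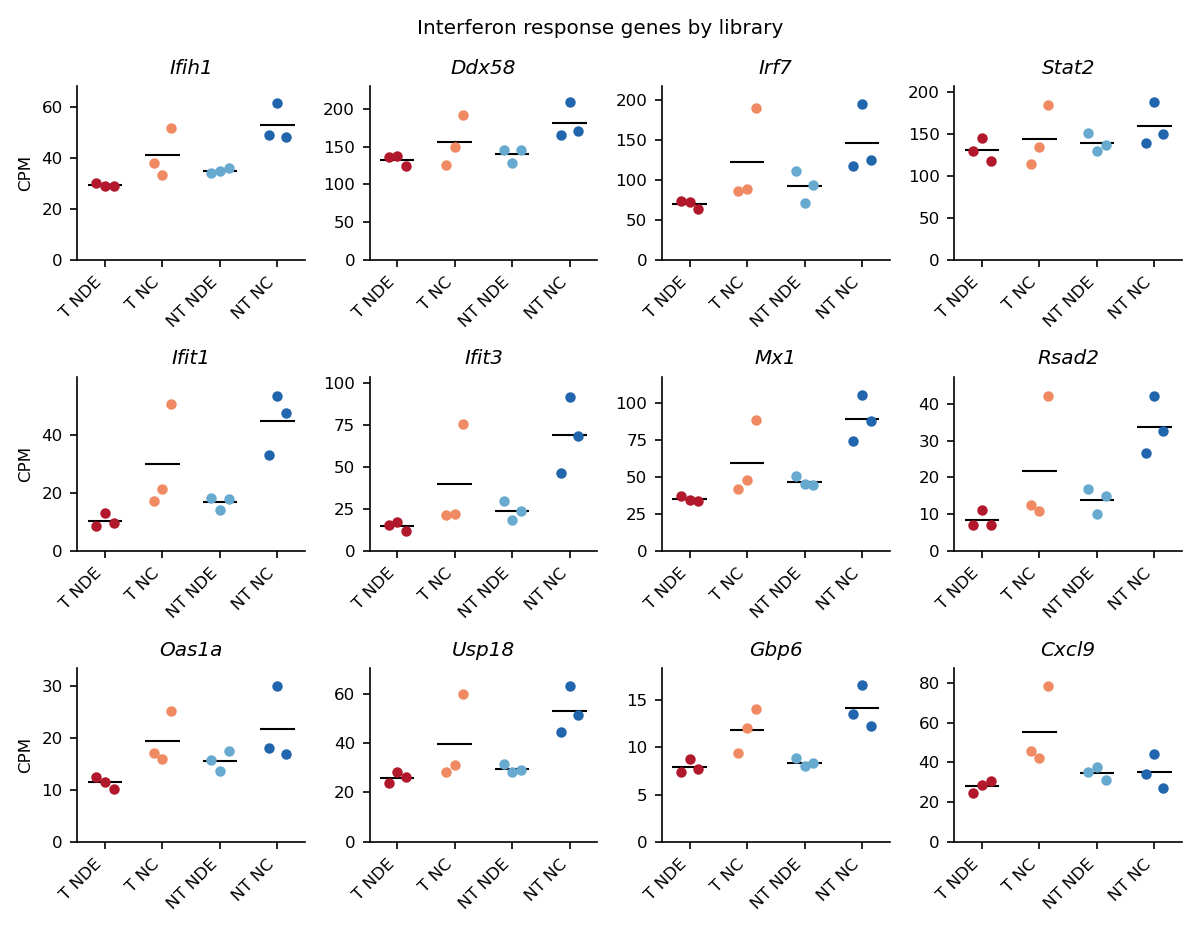
CPM of 12 interferon response genes (vertical axis, from 0) in each of the 12 libraries by group, with the group mean as a line. For Ifit1 the T NDE libraries lie at 8.50 to 13.1 CPM and the NT NC libraries at 33.1 to 53.3 CPM, with T NC replicate 3 at 50.7 CPM.

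**Figure D3:**
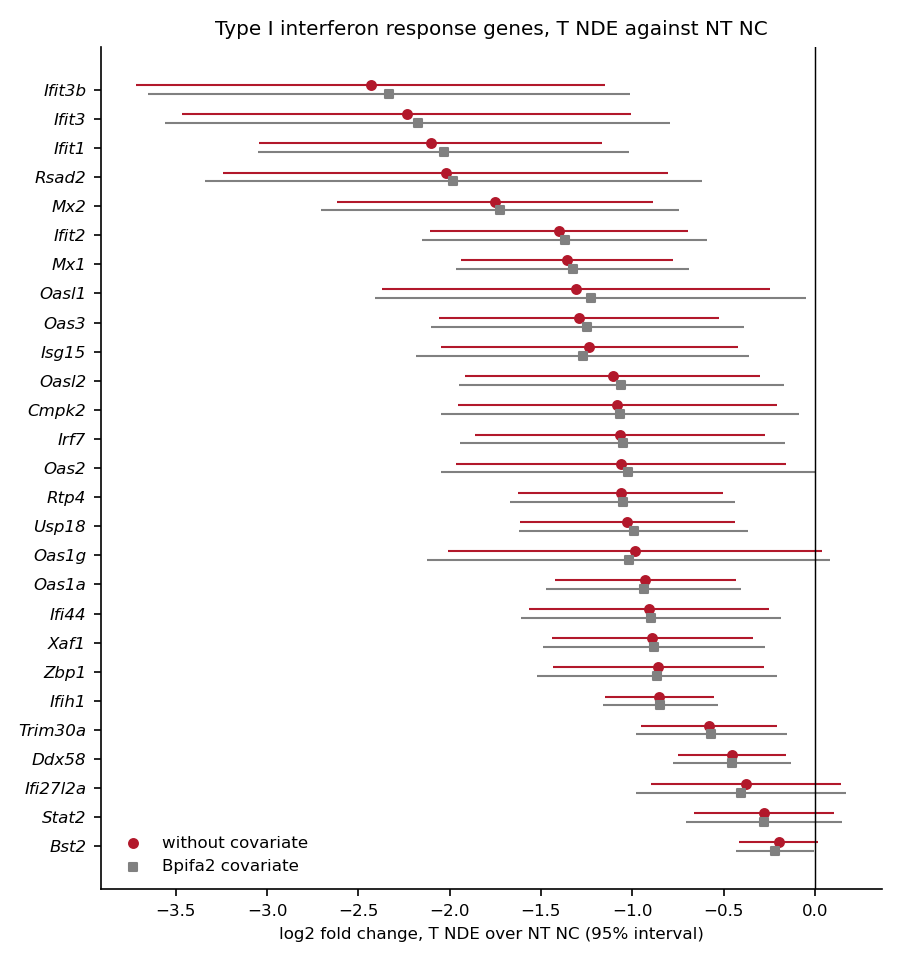
Log2 fold change of T NDE over NT NC with its 95% interval (horizontal axis) for 27 of the 28 tested type I interferon response genes, without (red circles) and with (grey squares) the Bpifa2 covariate. Every point lies below 0 in both fits, from -2.43 for Ifit3b to -0.20 for Bst2 without the covariate.

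The level of the list varied among the NT NC libraries. Its mean log2 CPM was 4.61, 4.71 and 4.44 in T NDE and 5.37, 6.05 and 5.57 in NT NC, so that every T NDE library was below every NT NC library. It was 4.89, 4.94 and 5.90 in T NC and 5.12, 4.77 and 5.06 in NT NDE. All 6 of these lay above the highest T NDE library, and of them only T NC replicate 3 lay inside the NT NC range. Beside NT NC, the list median was -0.39 for T NC and -0.66 for NT NDE. NT NC 2, the highest library, and NT NC 3 carry salivary transcripts, as does T NDE 3, the lowest. All 28 genes were lower in each of 18 alternative fits, with list medians of -1.17 to -0.65. The median was -0.77 without NT NC 2, where 18 genes had an unadjusted p under 0.05, against 24 in the main fit. Without T NDE 3 and NT NC 3 it was -1.07, again with 18 such genes. It was -0.65 without the 3 salivary libraries, which leaves NT NC 1, the lowest NT NC library, alone. With 1 library the spread within NT NC is not measured, so list genes are not counted by p there. The part of the salivary libraries in the size was not tested further.

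The plasmacytoid dendritic cell list, a source of type I interferon, had 8 of 12 genes lower and a median of -0.14. It shares Bst2 and Irf7 with the interferon list and Klk1 with the salivary gland list. The mean log2 CPM of the list was 5.47, 5.45 and 5.76 in T NDE and 5.62, 5.81 and 5.90 in NT NC. Its defining gene Siglech, also chosen after its values were seen, had 79.3, 87.6 and 111 CPM in T NDE and 146, 96.8 and 113 CPM in NT NC (log2 fold change -0.35, edgeR adjusted p = 0.612), with overlapping groups. In bulk nodes, fewer cells of a type and less RNA per cell cannot be told apart.

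Interferon gamma response genes followed with smaller differences. Of 21 tested genes 18 were lower and 3 higher, with a median of -0.33, 0 genes past the threshold, 11 lower at an unadjusted p under 0.05 (4.2% of all genes) and 10 lower without overlap (6.68%). Without the 3 salivary libraries, against NT NC 1 alone, 16 of 22 were lower with a median of -0.26. Gbp6, a guanylate-binding protein gene, had 7.35, 8.72 and 7.69 CPM in T NDE and 13.6, 16.6 and 12.3 CPM in NT NC, without overlap (log2 fold change -0.84, SE 0.158, edgeR adjusted p = 0.165). Gbp4 and the T cell-specific GTPase gene Tgtp1 did not overlap either, with log2 fold changes of -0.38 and -0.46. The chemokine gene Cxcl9 had 24.6, 28.7 and 30.7 CPM in T NDE and 33.98, 44.3 and 27.02 CPM in NT NC, with overlap (log2 fold change -0.33, edgeR adjusted p = 0.76), and in T NC a log2 fold change of 0.66 over the same NT NC libraries. The list median was 0.01 for T NC and -0.14 for NT NDE, and in T NDE it was -0.20 without NT NC 2.

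Genes with the smallest p included further interferon-linked and T cell genes. Slfn1, a Schlafen gene that restrains T cell growth, had 61.00, 71.2 and 73.2 CPM in T NDE and 95.5, 111 and 99.04 CPM in NT NC. The libraries did not overlap, and NT NDE, at 68.1, 67.6 and 66.4 CPM, lay with T NDE (log2 fold change -0.57, SE 0.0862, edgeR adjusted p = 0.0808, with the covariate 0.0639). Ifi208, of the interferon-inducible p200 family, had a log2 fold change of -0.71, and the ubiquitin ligase and antibody receptor gene Trim21 -0.34. The non-classical MHC gene H2-T22 had a log2 fold change of -0.34. Ms4a4b and Ms4a6b, membrane proteins of T cells, had log2 fold changes of -0.46 and -0.41, and Pdk1, a kinase that holds back pyruvate oxidation, -0.42. Adamts6, a secreted metalloprotease gene, had a log2 fold change of -0.45 with the covariate. Each of these had an edgeR adjusted p between 0.0808 and 0.282 without the covariate and no overlap. Genes outside both lists that DESeq2 called, chosen after their values were seen, included the Schlafen genes Slfn5 and Slfn8 (log2 fold changes -0.83 and -0.76), the p200 family genes Ifi203, Ifi206 and Ifi214 (-0.50, -0.71 and -0.85) and the ADP-ribosyltransferase genes Parp9 and Parp14 (-0.49 and -0.48), all without overlap. Slfn5 had 161, 187 and 177 CPM in T NDE and 265, 367 and 304 CPM in NT NC (edgeR adjusted p = 0.282, DESeq2 adjusted p = 0.00923). Higher in T NDE was Il9r, the receptor of interleukin 9, with 75.05, 71.3 and 70.4 CPM in T NDE and 48.9, 49.1 and 48.8 CPM in NT NC. All T NDE libraries were above the NT NC libraries, which were nearly equal (log2 fold change 0.56, SE 0.0952, edgeR adjusted p = 0.115). T NC, at 42.8, 47.7 and 49.03 CPM, lay at the NT NC level or below.

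T cell genes leaned lower by less. Of 19 pan T cell genes 17 were lower, against 47.9% of all genes, with a median of -0.13. An unadjusted p under 0.05 was found for 6 of them (background 4.2% for lower genes), and 0 passed the threshold. Of 13 naive T cell genes 10 were lower, 5 at an unadjusted p under 0.05 (median -0.12). The intervals of all 19 and all 13 lay inside 2-fold. Over the same NT NC libraries the pan T median was 0.06 for T NC and -0.13 for NT NDE. That of the naive T list was -0.01 for T NC and -0.12 for NT NDE, so neither was particular to T NDE. In the cytotoxic and NK cell list 10 of 15 genes were lower, 3 at an unadjusted p under 0.05, and the median was -0.04. The direction turned without NT NC 2 (10 of 16 higher, median 0.04) and without T NDE 2 (9 of 15 higher, median 0.02). Klrd1 (CD94, an NK receptor), Eomes (a transcription factor of NK and memory T cells) and Prf1 (perforin) did not overlap, with log2 fold changes of -0.34, -0.33 and -0.24. Klrd1 had 42.5, 34.6 and 41.8 CPM in T NDE and 49.3, 54.5 and 46.2 CPM in NT NC (edgeR adjusted p = 0.372).

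The follicular and germinal centre lists leaned higher. Of 10 follicular helper T cell genes 7 were higher, 3 at an unadjusted p under 0.05 (background 4.32% for higher genes). The list median was 0.10, which was 0.06 without NT NC 1 and 0.22 without the 3 salivary libraries. Il21, the cytokine by which these cells help B cells, had 4.61, 5.53 and 3.82 CPM in T NDE and 0.619, 2.50 and 2.27 CPM in NT NC. All T NDE libraries were above NT NC, whose replicate 1 was the lowest (log2 fold change 1.35, SE 0.373, edgeR adjusted p = 0.372). It rose by 3.05 on the log2 scale without the 3 salivary libraries, against NT NC 1 alone. T NC and NT NDE had log2 fold changes of 1.45 and 1.39 over the same NT NC libraries. Maf and Tox2, transcription factor genes of helper T cells, had log2 fold changes of 0.25 and 0.41, without overlap. Of 15 germinal centre B cell genes 14 were higher, 4 at an unadjusted p under 0.05 (background 4.32%), with a median of 0.32. The median of this list was 0.26 for T NC and 0.33 for NT NDE over the same NT NC libraries. Lipc, Basp1 and Gcsam, the last a signalling adaptor of germinal centre B cells, had log2 fold changes of 1.04, 0.27 and 0.55, all with overlap. Of 15 follicular dendritic cell genes 11 were higher (3 at an unadjusted p under 0.05, median 0.11), but 7 were higher and 8 lower without the 3 salivary libraries (median -0.02). For T NC and NT NDE the median of this list was 0.09 and 0.27 over the same NT NC libraries. Cxcl13, a chemokine of the B cell follicle, had 168, 239 and 242 CPM in T NDE and 158, 175 and 189 CPM in NT NC, with overlap (log2 fold change 0.32, edgeR adjusted p = 0.482). Coch and the complement receptor gene Cr2 had log2 fold changes of 0.47 and 0.30.

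Socs3, a feedback inhibitor of cytokine signalling, had 105, 108 and 88.1 CPM in T NDE and 59.8, 84.9 and 77.02 CPM in NT NC, without overlap (log2 fold change 0.44, edgeR adjusted p = 0.348, DESeq2 adjusted p = 0.0379). It had a log2 fold change of 0.68 in T NC and 0.78 in NT NDE over the same libraries. Without the 3 salivary libraries, where NT NC is 1 library, it rose by 0.84 on the log2 scale.

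Genes of interleukin-17 producing gamma delta T cells leaned higher in T NDE. All 16 tested genes were higher, against 52.1% of all genes, 2 of them without overlap (6.36% of all genes), 5 at an unadjusted p under 0.05 (background 4.32% for higher genes) and 0 past the threshold, with a median of 0.58. The list includes antigen receptor segments. In a fit without these segments and the salivary list, 11 genes remained, all higher, with a median of 0.42. Il17f, a cytokine that acts on epithelium and neutrophils, had 1.26, 1.37 and 1.79 CPM in T NDE and 0.169, 0.542 and 0.707 CPM in NT NC, without overlap (log2 fold change 1.62, SE 0.387, edgeR adjusted p = 0.282). Sox13, a transcription factor of this lineage, had a log2 fold change of 0.53, and Maf, which the list shares with helper T cells, is given above. T NDE 1 was the highest library. The mean log2 CPM of the list was 4.74, 3.80 and 4.23 in T NDE and 3.48, 3.78 and 3.95 in NT NC, and the list median was 0.20 without T NDE 1 and 0.88 without the 3 salivary libraries. Over the shared NT NC libraries it was -0.48 in T NC and 0.06 in NT NDE.

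Neutrophil genes leaned higher in T NDE. Of 20 genes 18 were higher in T NDE, 3 at an unadjusted p under 0.05 (background 4.32% for higher genes). The list median was 0.44, against 1.27 for T NC and 0.73 for NT NDE over the same NT NC libraries. The mean log2 CPM of the list was 3.05, 2.97 and 2.98 in T NDE and 3.13, 2.41 and 2.10 in NT NC. T NDE libraries were alike and NT NC 1 lay above them. Lcn2, the iron-binding lipocalin of neutrophil granules, had 18.8, 12.98 and 14.5 CPM in T NDE and 13.1, 8.75 and 8.43 CPM in NT NC, with overlap (log2 fold change 0.62, SE 0.233, edgeR adjusted p = 0.504). S100a8, an alarmin, had a log2 fold change of 0.70 and the collagenase gene Mmp8 0.85, the second without overlap. Stfa2l1, a stefin gene, had a log2 fold change of 2.24 at levels under 1 CPM. The list median was 0.83 without NT NC 1 and -0.04 without the 3 salivary libraries, against NT NC 1 alone. With the Bpifa2 covariate it was 0.43. Ccl2, the monocyte chemoattractant, had a log2 fold change of -0.41 in T NDE with overlap and 1.11 in T NC.

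**Figure D4:**
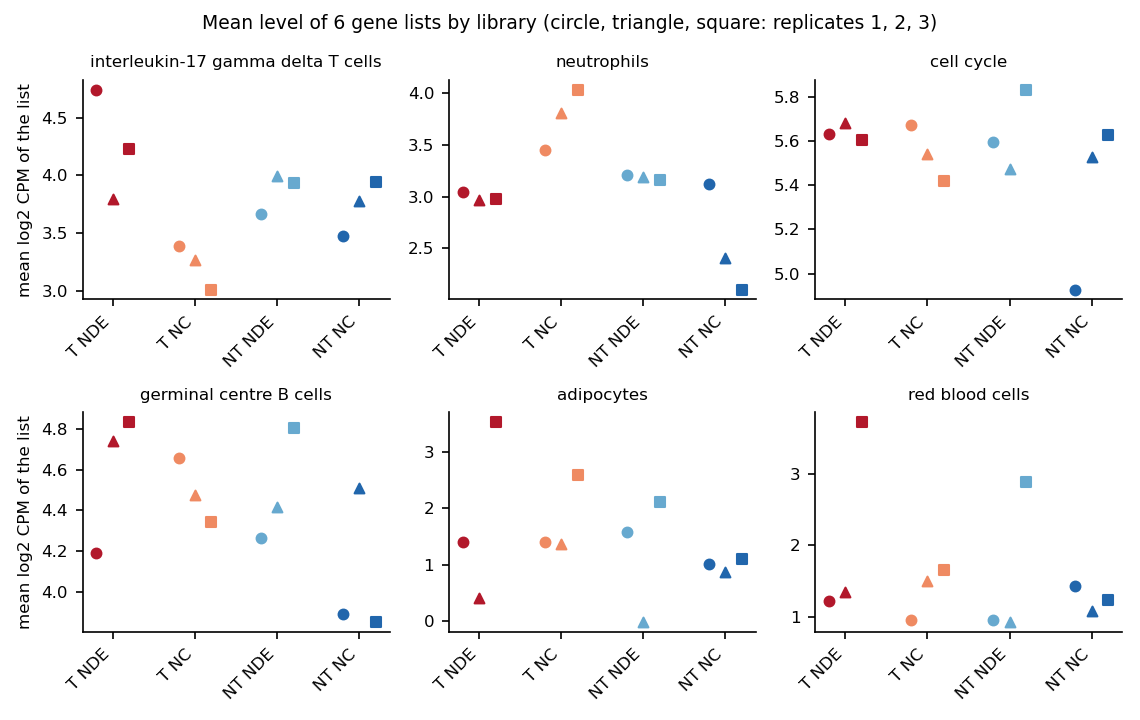
Mean log2 CPM (vertical axis, not from 0) of 6 gene lists in each library, by group, with symbols for replicates 1 to 3. T NDE neutrophil levels, 2.97 to 3.05, lie inside the NT NC range of 2.10 to 3.13, and the red blood cell and adipocyte lists are high in T NDE replicate 3.

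Cell cycle genes were higher by a small amount. All 26 were higher in T NDE, against 52.1% of all genes, with a median of 0.24. Of them 3 had an unadjusted p under 0.05 (background 4.32% for higher genes), and 9 with the covariate (background 4.53%). All 26 intervals lay inside 2-fold, against 80.4% of all genes. Over the same NT NC libraries the list median was 0.13 for T NC and 0.25 for NT NDE, so the rise was not particular to T NDE. Aurkb and Ube2c, which act in mitosis, did not overlap, with log2 fold changes of 0.32 and 0.36, and the replication licensing gene Mcm2 had a log2 fold change of 0.20. Ube2c had 31.7, 31.6 and 31.3 CPM in T NDE and 17.05, 29.1 and 27.3 CPM in NT NC (edgeR adjusted p = 0.584). NT NC 1 was the lowest library. The mean log2 CPM of the list was 5.63, 5.68 and 5.60 in T NDE and 4.93, 5.53 and 5.63 in NT NC. Without NT NC 1 the median was 0.06 with 17 of 26 higher. Without the 3 salivary libraries, where NT NC 1 is the only NT NC library, the median was 0.81.

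Genes of chaperones and of oxidative phosphorylation were also higher by small amounts. Of 17 heat shock and chaperone genes 16 were higher, 5 at an unadjusted p under 0.05 (median 0.22). All 20 oxidative phosphorylation genes were higher, 7 at an unadjusted p under 0.05 (median 0.12). The background was 52.1% for higher genes and 4.32% for those at an unadjusted p under 0.05, and 0 passed the threshold in either list. Over the same NT NC libraries the chaperone median was 0.11 for T NC and 0.14 for NT NDE. That of oxidative phosphorylation was 0.18 for T NC and 0.13 for NT NDE. The mitochondrial co-chaperonin gene Hspe1 had 98.5, 113 and 96.3 CPM in T NDE and 76.9, 85.4 and 89.6 CPM in NT NC, without overlap (log2 fold change 0.29, edgeR adjusted p = 0.372). Dnajb1 and Hspa8, cytosolic chaperone genes, had log2 fold changes of 0.33 and 0.28 with overlap.

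Receptors for neuropeptides and transmitters had a median near 0 over all 12 libraries. Of 20 listed genes 14 were tested, 8 higher and 6 lower, with a median of 0.03, 0 at an unadjusted p under 0.05 and 11 intervals inside 2-fold. Without the 3 salivary libraries, against NT NC 1 alone, the median was -0.32, with 11 of 14 lower. With the Bpifa2 covariate, which keeps all libraries, the median was -0.0025, with 7 higher and 7 lower. Trpv1, the capsaicin receptor, was among the 6 not tested for low counts. Calcrl had 59.6, 63.6 and 68.7 CPM in T NDE and 77.1, 67.3 and 71.3 CPM in NT NC (log2 fold change -0.17, 95% interval -0.34 to 0.01). Ramp1 had a log2 fold change of -0.17 (-0.45 to 0.11) and Tacr1, the substance P receptor, 0.02 (-0.41 to 0.46). Groups overlapped for all 3 genes, and each interval held 0. The adrenergic receptor genes Adra2a and Adra1a had log2 fold changes of -0.29 and 1.37, with overlap and the second under 2 CPM. Of 19 Schwann cell and nerve fibre genes 13 were tested, 6 higher and 7 lower, with a median of -0.01.

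Of the stromal lists, that of the extracellular matrix leaned lower. Of 24 extracellular matrix genes 20 were lower, 2 at an unadjusted p under 0.05 (4.2% of all genes) and 4 without overlap (6.68% of all genes), with a median of -0.19 and 22 intervals inside 2-fold. Col6a1 and Col6a2, chains of type VI collagen, had log2 fold changes of -0.31 and -0.34, and the proteoglycan gene Bgn -0.21, each without overlap. Col6a1 had 62.3, 70.4 and 78.6 CPM in T NDE and 102, 79.7 and 80.4 CPM in NT NC (edgeR adjusted p = 0.569). For Col6a1, T NC had a log2 fold change of 0.09 over the same NT NC libraries. The list median was -0.10 without T NDE 1, -0.12 without NT NC 1 and -0.44 without the 3 salivary libraries, against NT NC 1 alone. With the Bpifa2 covariate it was -0.20. Other stromal lists leaned the other way or neither. Of 18 fibroblastic reticular cell and lymphoid chemokine genes 14 were higher (median 0.08), of 18 blood endothelium genes 13 (median 0.14) and of 14 lymphatic endothelium genes 7 (median 0.01). In the smooth muscle and pericyte list 8 of 11 genes were higher (2 at an unadjusted p under 0.05, median 0.15), with Myh11, Tagln and Mylk at log2 fold changes of 0.27, 0.29 and 0.13, all with overlap. That direction rested on T NDE 3: without it 5 were higher and 6 lower with a median of -0.04, and likewise -0.04 without the 3 salivary libraries.

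Sinus macrophage genes leaned lower in T NDE 1 and 2. Of 15 tested genes 10 were lower, 1 at an unadjusted p under 0.05, with a median of -0.17. Over the same NT NC libraries the list median was -0.23 for T NC and 0.07 for NT NDE. The lower level was thus not particular to T NDE. Mrc1, the mannose receptor, had 60.7, 79.3 and 127 CPM in T NDE and 132, 116 and 120.0 CPM in NT NC, and Siglec1, the sialic acid receptor of subcapsular macrophages, 158, 189 and 258 CPM in T NDE and 237, 256 and 239 CPM in NT NC. In both, T NDE 1 and 2 lay below NT NC and T NDE 3 within or above its range. The log2 fold changes were -0.46 and -0.27 (edgeR adjusted p = 0.635 and 0.641), and that of Spic, a transcription factor of iron-recycling macrophages, -0.35. Without the 3 salivary libraries, against NT NC 1 alone, Mrc1 fell by 0.91 on the log2 scale, and 13 of the 15 genes were lower. NT NC 1 was the highest NT NC library, with a mean log2 CPM of the list of 6.27 against 5.91 and 6.04. With the Bpifa2 covariate, which keeps all libraries, the list median was -0.16. The list median was -0.42 without T NDE 3, -0.58 without the 3 salivary libraries and -0.01 without T NDE 1.

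The lists with the largest positive medians rested on T NDE 3. For adipocytes, 9 of 10 tested genes were higher with a median of 1.69, and for red blood cells 6 of 7 with a median of 1.80, and 1 gene of each had an unadjusted p under 0.05. Fabp4, the fatty acid carrier of fat cells, had 14.8, 8.77 and 43.4 CPM in T NDE and 8.10, 9.17 and 10.6 CPM in NT NC. The haemoglobin gene Hba-a1 had 6.91, 8.72 and 71.5 CPM in T NDE and 8.44, 7.54 and 7.98 CPM in NT NC. In both genes T NDE 3 was far above the other 5 libraries. Plin1 and Retn, a lipid droplet coat protein and an adipokine, had log2 fold changes of 1.71 and 2.54, and Hba-a2 and Hbb-bt 2.22 and 1.65. Hba-a1 and Hba-a2 are near-identical copies whose reads the counting could split. Without T NDE 3 the medians were 0.02 for adipocytes and 0.04 for red blood cells. Over the same NT NC libraries the adipocyte median was 1.20 for T NC and 0.47 for NT NDE. That of red blood cells was -0.06 for T NC and 0.77 for NT NDE. The salivary gland list, which set that library apart, had a median of 0.55 that was stable in neither sign nor size: it was -1.10 with limma-voom, -6.15 without T NDE 3 and 2.77 without NT NC 3. Its named genes Ltf, Oit1 and Cldn10 had log2 fold changes of 0.63, 0.47 and 0.35. Bpifa2 itself had a log2 fold change of 0.33 with a 95% interval of -5.49 to 6.15. In the mast cell and basophil list 5 of 9 genes were lower with a median of -0.14, but 8 of 9 were higher without NT NC 3 (median 0.10). Gata2, Hdc and Cma1 had log2 fold changes of 0.34, 0.35 and -0.34, all with overlap.

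**Figure D5:**
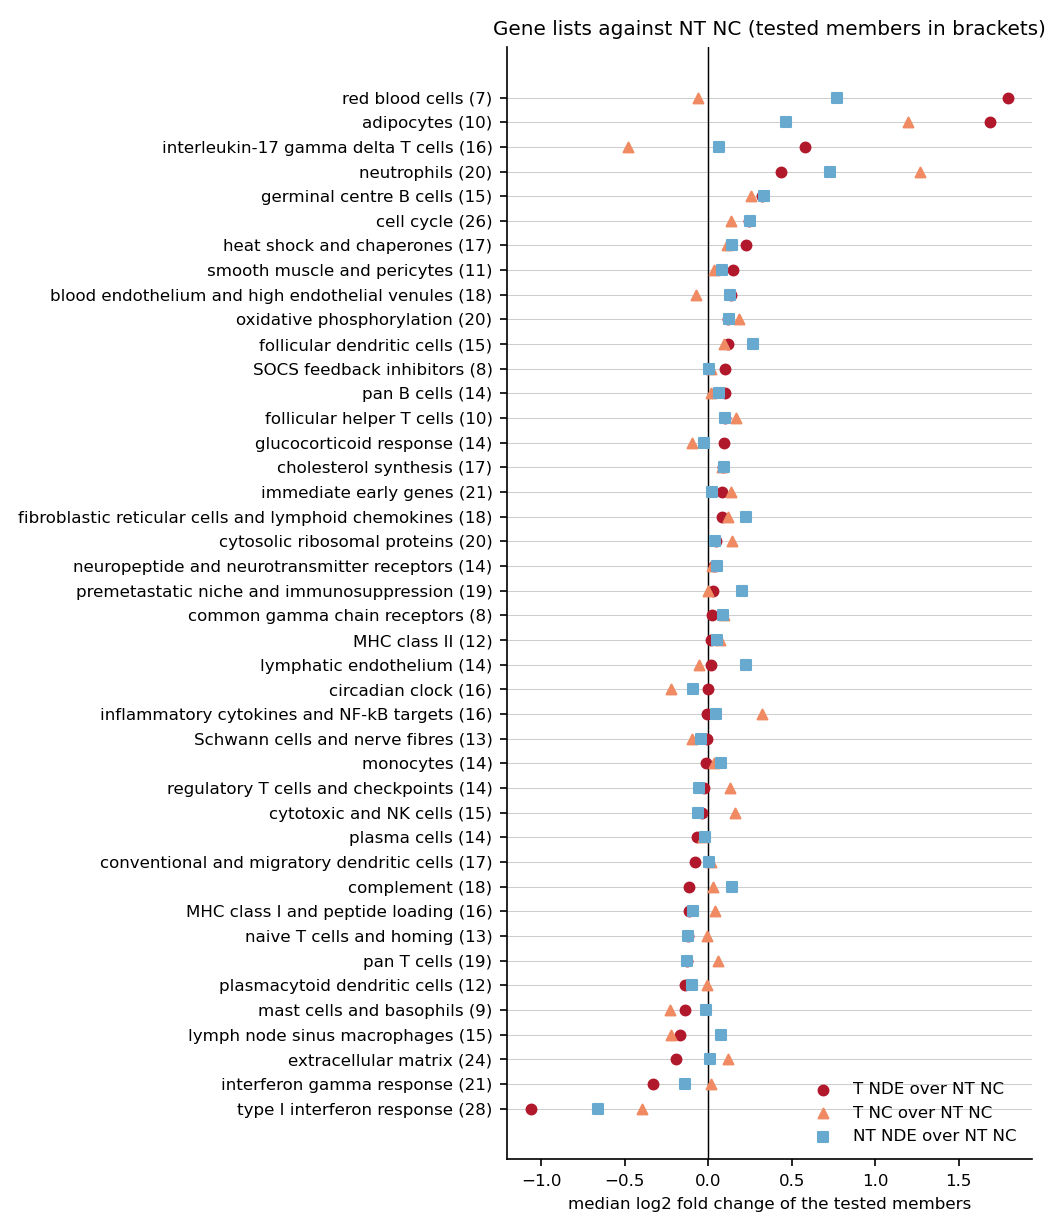
Median log2 fold change over NT NC (horizontal axis) of each gene list with at least 6 tested genes, the salivary gland list left out, for T NDE (circles), T NC (triangles) and NT NDE (squares), which share the NT NC libraries. The type I interferon list is lowest in T NDE at -1.06, and the red blood cell and adipocyte lists, highest at 1.80 and 1.69, rest on T NDE replicate 3.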

How the data were processed

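Messenger RNA of mouse lymph nodes was sequenced after Trizol extraction and a standard Illumina library preparation, per the labels' protocols. HISAT2 2.0 and the mm10 build are named in the submitters' processing notes. Of the counting, the sources used here give neither tool nor annotation nor strand setting. The authors deposited 1 table of raw, unnormalized counts for 55487 gene IDs. Of these 55141 matched a symbol, and the others held no more than 0.0548% of any library. No library was a copy of another.

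Genes were tested with edgeR 4.0.16 under R 4.3.3 (robust quasi-likelihood fit, TMM factors, filterByExpr with minimum count 10 and minimum total 15, 17301 genes kept). All 12 libraries entered the fit, with 1 mean per group, and the contrast was T NDE minus NT NC. A second fit added the log2 CPM of Bpifa2. P-values are two-sided and adjusted by the Benjamini-Hochberg method over all tested genes, with a threshold of 0.05. Fold changes are unshrunk, with SEs and 95% intervals from the F statistic. The test was checked on simulated counts. An exact permutation of 3 against 3 libraries cannot go below 0.1. DESeq2 1.42.0 and limma 3.58.1 were alternatives, beside other scalings and filters, a replicate block, the 6 libraries alone, and fits without salivary libraries or single replicates. The labels do not say whether replicate numbers pair the samples, and the main fit used no pairing.

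The members and the 46 gene lists were chosen with earlier results of these data known. Lists are described by counts and medians, without tests: 10 chosen lists and the 8 others with the largest absolute medians. Named genes are those that pass, the 10 with the smallest p in each fit, the 3 with the smallest p of each described list and 13 fixed genes. Antigen receptor, predicted and salivary genes were left out of the ranking by p. The values of 1 member of the type I interferon list are not reported here.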

Additional observations from a re-analysis of the deposited data

How the results depend on the processing

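The number of genes called without the covariate was 0. It was 1 with the Bpifa2 covariate, 1 with limma-voom, 1 without the 2 most salivary libraries, 11 with the 6 libraries alone, 12 with no filter on low counts, 82 with DESeq2 and 70 without the 3 salivary libraries (a fit in which NT NC is 1 library, assumed to vary like the other groups). With the covariate, 1 gene was called. That count was 2 with upper-quartile factors, 7 with the 6 libraries alone, 17 with no filter and 62 with DESeq2. Leaving out 1 replicate gave 0 to 5 calls without the covariate (4 without T NDE 1, 5 without T NDE 3) and 0 to 22 with it (22 without T NDE 3, 4 without T NDE 1). The causes were not tested.

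The deviations of same-numbered libraries from their group means had correlations of 0.30, -0.005 and 0.52 in replicates 1, 2 and 3. That of T NDE 2 with NT NC 1, which differ in number, was 0.34, and the other pairs of unlike number ran from -0.45 to 0.063. Replicate 3 is salivary in both groups. Without the salivary gland list the correlations of replicates 1, 2 and 3 were 0.21, 0.014 and 0.43. That of T NDE 2 with NT NC 1 was then 0.26. These values do not settle whether replicate numbers pair the samples. The replicate block gave 1 call without the covariate, Slfn1 (edgeR adjusted p = 0.0485), and 0 calls with the covariate.

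The mean distance between T NDE and NT NC libraries was 0.306 as a mean absolute difference, another measure, and 0.469 without the 3 salivary libraries. Without these libraries 11632 genes had an interval inside 2-fold. Of 69 named genes, 9 changed sign under some alternative. Bpifa2 was -1.41 with limma-voom, -0.84 with the replicate block and -4.59 without the 2 most salivary libraries. Without the 3 salivary libraries Hba-a1 was -0.10, Mylk -0.042, Hdc -0.042, Tacr1 -0.10 and Ccl2 0.014. Without the 2 most salivary libraries Hba-a1 was -0.021, Mylk -0.011, Hdc -0.20 and Retn -0.34. Tacr1 was -0.045 with the covariate. Leaving out single replicates gave -8.39 to 4.12 for Bpifa2, -0.68 to 0.077 for Ccl2, -0.27 to 0.70 for Cldn10, -0.67 to 0.043 for Cma1, -0.026 to 2.32 for Hba-a1, -0.38 to 3.10 for Retn and -0.074 to 0.18 for Tacr1.

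Of 1232 values of named genes under alternatives, 1170 kept direction and side of the threshold and 25 changed sign. The other 37, in 19 of the 69 named genes, passed the threshold. No named gene passed in the main fit, so no value could lose a call. Of 323 list medians 19 moved by over 1 SD. With 3 libraries a group and a median interval width of 0.56, small differences are not detectable.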
